A study of Bos taurus with 34 samples.

Results

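The morula and the blastocyst were compared among knockout embryos: 9 knockout blastocysts were set against 4 knockout morulae, 13 of the 34 single bovine embryos sequenced in all. The embryos were chosen by title and stage label, with earlier results of these data known. Titles name the knockout CSF2KO, after the ligand, where the series title names CSF2RA, the alpha subunit of the receptor for colony-stimulating factor 2. The knockout blastocysts were 7 females and 2 males, and the knockout morulae 3 females and 1 male (embryo 1), by title; sex was not checked here. Controls, used only beside the knockouts, were 17 blastocysts (8 females, 9 males) and 4 morulae (1 female, 3 males). The series design describes embryos made in vivo, whereas the growth field of every sample names in vitro development and the treatment field names recombinant Wnt5A; all 34 embryos carry the same entries, and which holds was not settled. How the knockout was made, whether an embryo was edited in all its cells and which embryos share parents or a collection day are not given in the sources used here. Each embryo was 1 library and 1 replicate, so p-values measure the spread between these embryos.

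Between the morula and the blastocyst, the outer cells of a cattle embryo become the trophectoderm, the first epithelium. Its cells seal their borders with tight junctions, pump sodium with the Na+/K+ ATPase and so fill the blastocoel, while the inner cells give rise to epiblast and hypoblast. The trophectoderm of ruminants later secretes interferon tau and the pregnancy-associated glycoproteins. Colony-stimulating factor 2 is a cytokine made by the oviduct and uterus that acts on the embryo through CSF2RA, its binding subunit, and CSF2RB, the subunit that signals through JAK2, STAT5, PI3-kinase and MAP kinase.

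Both receptor genes were near the limit of detection in every knockout. CSF2RA (chr3:119425809-119430912, ARS-UCD1.2 coordinates as deposited) had 2 reads, both in knockout blastocyst 57, and 2 reads over the 17 control blastocysts. CSF2RB (chr5:75349088-75370432) had 3 reads, 2 in blastocyst 57 and 1 in blastocyst 59, and 3 over the control blastocysts. Neither gene is listed for the morulae. At this level the targeted gene does not check the genotype labels.

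The libraries of the 2 stages differed in the number of genes detected and in make-up, while the difference in depth did not pass after adjustment. Over the 14494 genes listed for both stages, knockout blastocysts had 44539 to 987641 reads (median 254510) and knockout morulae 43672 to 124584 (median 87852), a difference of 0.56 in log10 reads (exact permutation p = 0.0434, adjusted over 4 library measures 0.0578). Reads were found for 8398 genes in morula 1, 7845 in morula 5, 4346 in morula 21 and 4950 in morula 49, against 6808 to 12165 genes (median 9739) in the blastocysts. The mean number of genes detected was 10194 ± 1753 (SD, n = 9) in blastocysts and 6385 ± 2033 (SD, n = 4) in morulae (two-sided exact permutation p = 0.00699, adjusted 0.0252; the smallest p this design allows is 0.0014). The 2 highest genes of a library took 9.59% ± 2.23 of reads in blastocysts (SD, n = 9) and 33.1% ± 24.5 in morulae (SD, n = 4; exact permutation p = 0.0126, adjusted 0.0252). Without blastocyst 57 and morulae 21 and 49 these shares were 9.87% and 15.2% (exact permutation p = 0.178). NPAT alone held 36.3% of the reads of morula 21, 11.8% in morula 5, 9.15% in morula 49 and 4.57% in morula 1. GSC2 held 28.9% in morula 21, 18.7% in morula 49 and 8.94% in morula 5. TBX1 held 11.4% in morula 5, and ANKRD9 held 17.9% in morula 49. Morula 5 stays in the comparisons made without blastocyst 57 and morulae 21 and 49. Knockout blastocyst 57 was the shallowest blastocyst. Stage and deposited table cannot be told apart, because each stage has its own table and the tables were normalized separately. Levels are given as CPM, depth-scaled counts after a further scaling between embryos by the trimmed mean of M values. On that scale 1 read was worth 1.03 to 15.7 CPM in a blastocyst and 8.43 to 25.4 CPM in a morula. Changes are given also without blastocyst 57, morula 21 and morula 49 for many genes. Where that value is not given, the change may still move without them.

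**Figure D1:**
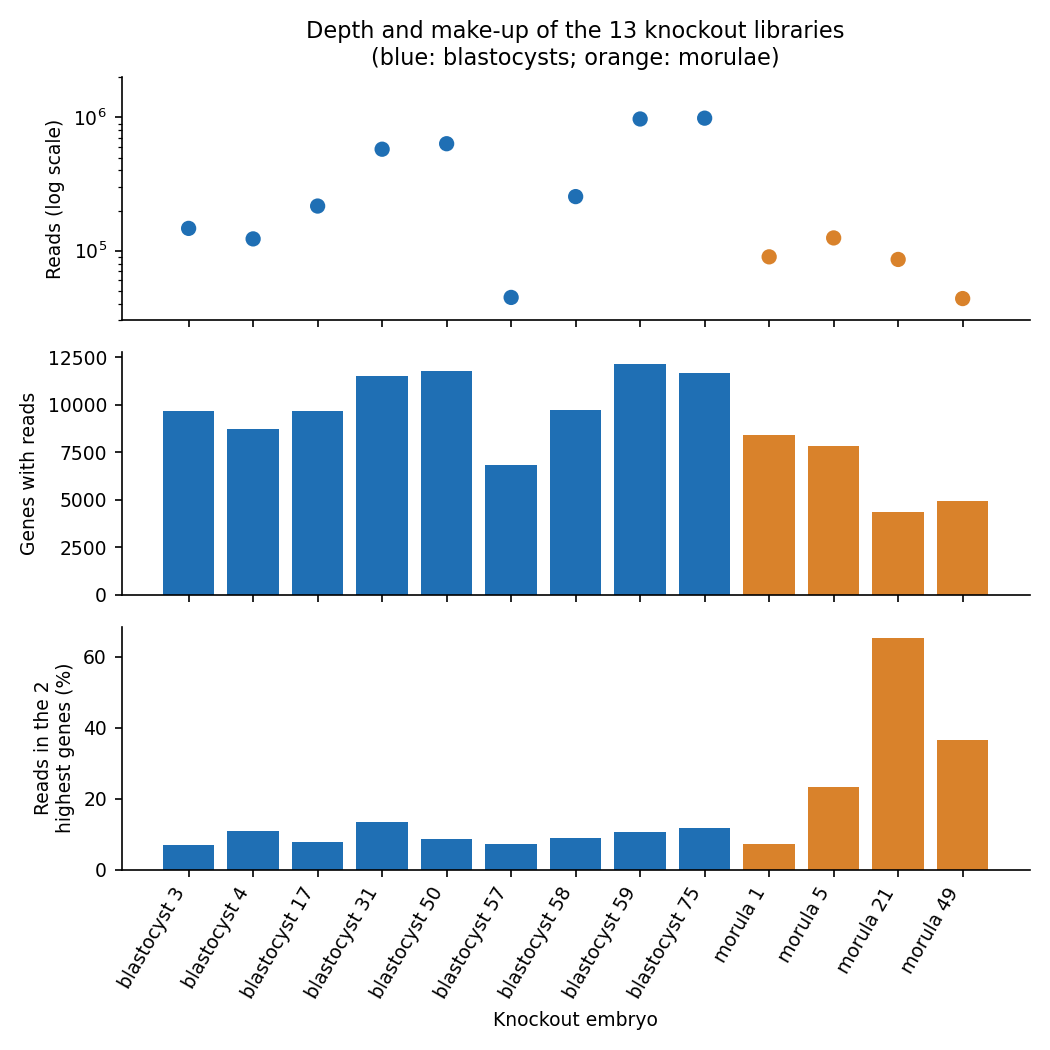
Reads over genes listed for both stages (log scale), genes with at least 1 read, and percent of reads in the 2 highest genes, for each of the 13 knockout embryos (blue, 9 blastocysts; orange, 4 morulae). Morulae 21 and 49 had 4346 and 4950 genes with reads, fewer than any blastocyst, and morula 21 stood highest in the share of its 2 highest genes.

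Knockout blastocysts carried more transcript for products of the trophoblast, for single tight junction, keratin and desmosome genes and for the beta-3 subunit of the sodium pump than knockout morulae. The genes with the clearest rise included PAG2, a pregnancy-associated glycoprotein, the protease PLAU, the claudin CLDN4, the epithelial adaptor SFN and the keratin KRT18. Other genes fell, among them the zinc finger gene ZNF711, the kinase WNK3, the splicing regulator RBFOX2 and the vesicle protein SCAMP5. Whether more genes rose or fell depended on the fit. A change is the difference of log2(CPM + 10), blastocyst minus morula, with sex as a term. In bulk RNA of whole embryos, fewer cells of a type and less RNA per cell cannot be told apart.

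Of 6669 genes tested in the 13 knockouts, 444 were higher in blastocysts (6.66%) and 35 lower (0.525%) by limma-trend at an adjusted p under 0.05. The filter, 20 CPM in at least 4 embryos, can be met by blastocysts alone, whereas a gene confined to morulae needs all 4 of them. No read in any morula was found for 62 tested genes (0.93%) and 45 of the 444 higher ones (10.1%). The part of the filter in the uneven counts was not tested. On simulated counts with these depths, limma-trend called unchanged genes higher more often than this threshold allows. Higher calls by limma-trend alone are thus less certain than their adjusted p. The median change of all tested genes was itself 0.69. The p-values test each change against 0, and whether a change exceeds this median was not tested. When all embryos were forced to the same distribution (quantile scaling), the median change was near 0 and 54 genes were higher (0.81%) and 68 lower (1.02%). With voom, which weights each value by its expected precision, 22 were higher (0.33%) and 27 lower (0.405%). Without blastocyst 57 and morulae 21 and 49, 276 of 6397 genes were higher (4.31%) and 23 lower (0.36%), with a median change of 0.26. Leaving out single embryos moved the count of higher genes between 135 (without blastocyst 59) and 1483 (without morula 5), and the count also moved over 1.5-fold without any one of blastocysts 3, 4, 17, 31, 50, 57, 58 and 75 or of morulae 21 and 49. Of the 444 higher genes, 363 had no read in morula 21 (81.8%, against 53.6% of all tested genes) and 304 none in morula 49 (68.5%, against 36% of all tested genes). Only 18 genes were higher (0.27%) and 8 lower (0.12%) in all of limma-trend, quantile scaling, voom and the fit without the 3 libraries, a set put together after the values were seen. Each of these 26 genes also passed in all 13 fits that left out 1 embryo. All 9 blastocysts lay above all 4 morulae for 13 of the 18 and below them for 5 of the 8; over all 6669 tested genes this held for 171 (2.56%) and 20 (0.3%), and since the calls rest on the same values nothing further is read from these counts.

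**Figure D2:**
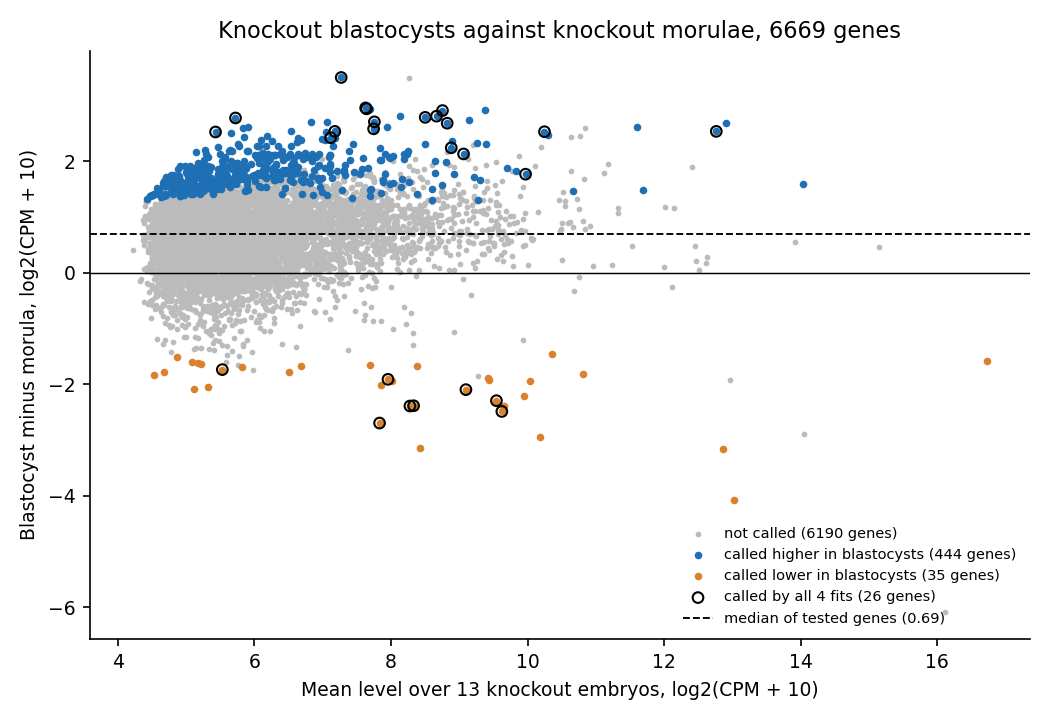
Change from morula to blastocyst in knockouts (blastocyst minus morula, log2(CPM + 10)) against mean level for 6669 tested genes; blue points are the 444 genes called higher, orange the 35 called lower, black rings the 26 called by all 4 fits. The dashed line is the median of all tested genes, 0.69, which lies above 0.

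The secreted and surface products of the trophoblast had the highest median change of the gene lists with at least 5 tested members. Of 14 members listed for both stages 8 were tested, of which 6 were higher in blastocysts and none lower, against 6.66% of all tested genes, and the median change was 2.71 (2.24 with quantile scaling and 1.85 without the 3 libraries). PAG2 (chr29:37571936-37581505) encodes a pregnancy-associated glycoprotein of the aspartic protease family. It stood at 16.9 CPM in morula 1, 18.6 in morula 5 and 0 in morulae 21 and 49, and at 55.4 to 385 CPM (median 220.5) in blastocysts. All 9 blastocysts lay above all 4 morulae. PAG2 rose by 3.50 ± 0.51 (SE, adjusted p = 0.00184). Genes of the PAG family share sequence, so reads of near-identical copies may be split between them.

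PLAU, the urokinase-type plasminogen activator, a secreted protease, stood at 33.7 CPM in morula 1, 9.32 in morula 5, 0 in morula 21 and 76.1 in morula 49. Blastocysts ranged from 94.2 to 434 CPM (median 303) and none overlapped the morulae. The change was 2.96 ± 0.55 (SE, adjusted p = 0.00846). SFN encodes 14-3-3 sigma, an adaptor protein of epithelia, and had 67.5, 196, 0 and 127 CPM in morulae 1, 5, 21 and 49 against 157 to 894 CPM (median 519) in blastocysts. Its lowest blastocyst lay under the highest morula, and the other 8 above every morula. SFN rose by 2.91 ± 0.60 (SE, adjusted p = 0.0106).

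PTGS2, the cyclooxygenase that makes prostaglandins in the trophectoderm, was uneven among morulae. It stood at 16.9, 18.6, 0 and 254 CPM in morulae 1, 5, 21 and 49, and at 15.7 to 698 CPM (median 354) in blastocysts. Morulae 1, 5 and 49 lay within the blastocyst range, and 3 blastocysts (57, 58 and 75) lay below morula 49. The change of 2.81 ± 0.83 passed narrowly (SE, adjusted p = 0.048) and did not pass with quantile scaling (adjusted p = 0.259) or voom (0.203); without the 3 libraries it was 3.65 (adjusted p = 0.0074). LGALS3, galectin-3, a lectin of epithelial surfaces, had 767, 2516, 43.7 and 1091 CPM in morulae 1, 5, 21 and 49 and 1036 to 7159 CPM (median 3724) in blastocysts. Of the 9 blastocysts, 8 lay above every morula. LGALS3 rose by 2.61 ± 0.72 (SE, adjusted p = 0.0368) and by 1.35 without the 3 libraries (adjusted p = 0.0144), and did not pass with quantile scaling (0.113) or voom (0.163). The tested members that missed the threshold were SSLP1 (1.53, adjusted p = 0.0904) and WLS (adjusted p = 0.0993). Interferon tau was too sparse to test: IFNT had 31 reads and IFNT3 had 50 over the 9 blastocysts, and both had none over the 4 morulae.

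Tight junction genes were led by CLDN4 (chr25), a claudin, one of the proteins that close the space between epithelial cells. CLDN4 stood at 42.2, 186, 21.9 and 178 CPM in morulae 1, 5, 21 and 49 and at 314 to 786 CPM (median 571) in blastocysts. The groups did not overlap. The rise was 2.68 ± 0.47 (SE, adjusted p = 0.00644), and it was 2.37 without the 3 libraries. Of 20 tested tight junction genes, 3 were higher, against 6.66% of all tested genes, and none lower, with a median change of 0.73, close to the 0.69 of all genes. The others were PATJ, a scaffold of the Crumbs polarity complex (1.73 ± 0.46, adjusted p = 0.0294; quantile scaling 0.326, voom 0.253), and OCLN, occludin (1.93 ± 0.53, adjusted p = 0.0325; quantile scaling 0.129, voom 0.31). PATJ had at most 21.9 CPM in a morula and at least 29.1 in a blastocyst. OCLN had no read in morulae 21 and 49, and in morulae 1 and 5 it had 84.3 and 74.5 CPM, within the blastocyst range of 62.8 to 141. Without the 3 libraries the OCLN change was 0.46 (adjusted p = 0.491).

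Among 19 tested genes of adherens junctions, desmosomes and keratins, 6 were higher, against 6.66% of all tested genes, and none lower, with a median change of 1.05 (0.58 with quantile scaling, 0.60 without the 3 libraries). KRT18 and KRT8 encode the paired keratins of simple epithelia and were the most abundant transcripts of the list. KRT18 had 2985, 3988, 197 and 2259 CPM in morulae 1, 5, 21 and 49 and 5525 to 10451 CPM (median 9847) in blastocysts, without overlap. It rose by 2.54 ± 0.51 (SE, adjusted p = 0.00913) and by 1.44 without the 3 libraries (adjusted p = 0.00104). KRT8 had 3279.8, 4966, 87.4 and 3122 CPM in the same morulae and 5431 to 12604 CPM in blastocysts, again without overlap. Its change of 2.68 ± 0.71 (SE, adjusted p = 0.0326) was 1.28 without the 3 libraries (adjusted p = 0.00786) and missed the threshold with quantile scaling (adjusted p = 0.185) and voom (0.147). Morula 21, in which 65.1% of reads came from the 2 highest genes, was far under the other morulae for both keratins.

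The desmosome genes DSC2, a desmosomal cadherin, and DSP, desmoplakin, the plaque protein that ties keratin to the junction, were also higher. DSC2 had 16.9, 37.3, 0 and 0 CPM in morulae 1, 5, 21 and 49 and 61.8 to 149 CPM (median 78.3) in blastocysts, and rose by 2.36 ± 0.48 (SE, adjusted p = 0.00913). DSP had 169, 112, 21.9 and 0 CPM against 204 to 414 (median 333), and rose by 2.62 ± 0.54 (SE, adjusted p = 0.0102). For both genes all blastocysts lay above all morulae, and neither passed with voom (adjusted p = 0.117 and 0.0635). Without the 3 libraries the changes were smaller, 1.32 for DSC2, which no longer passed (adjusted p = 0.051), and 1.14 for DSP (adjusted p = 0.0379). The remaining calls were PERP (1.53, adjusted p = 0.0391) and KRT19 (1.83, adjusted p = 0.0439), the latter named after its values were seen. Both missed the threshold with quantile scaling, with voom and without the 3 libraries.

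The sodium pump list had 11 tested members, of which 2 were higher, against 6.66% of all tested genes, and none lower, with a median change of 0.97 (0.48 with quantile scaling). ATP1B3, a beta subunit of the Na+/K+ ATPase, stood at 438, 596, 131 and 457 CPM in morulae 1, 5, 21 and 49 and at 973 to 1810.0 CPM (median 1184) in blastocysts. No blastocyst overlapped a morula, and the spread among blastocysts was narrow. ATP1B3 rose by 1.77 ± 0.40 (SE, adjusted p = 0.0167) and by 1.25 without the 3 libraries. AQP11, an aquaporin, was called at 1.64 ± 0.47 (SE, adjusted p = 0.0367) from at most 18.6 CPM in a morula and a blastocyst median of 46.4 CPM, and did not pass in the other 3 fits.

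**Figure D3:**
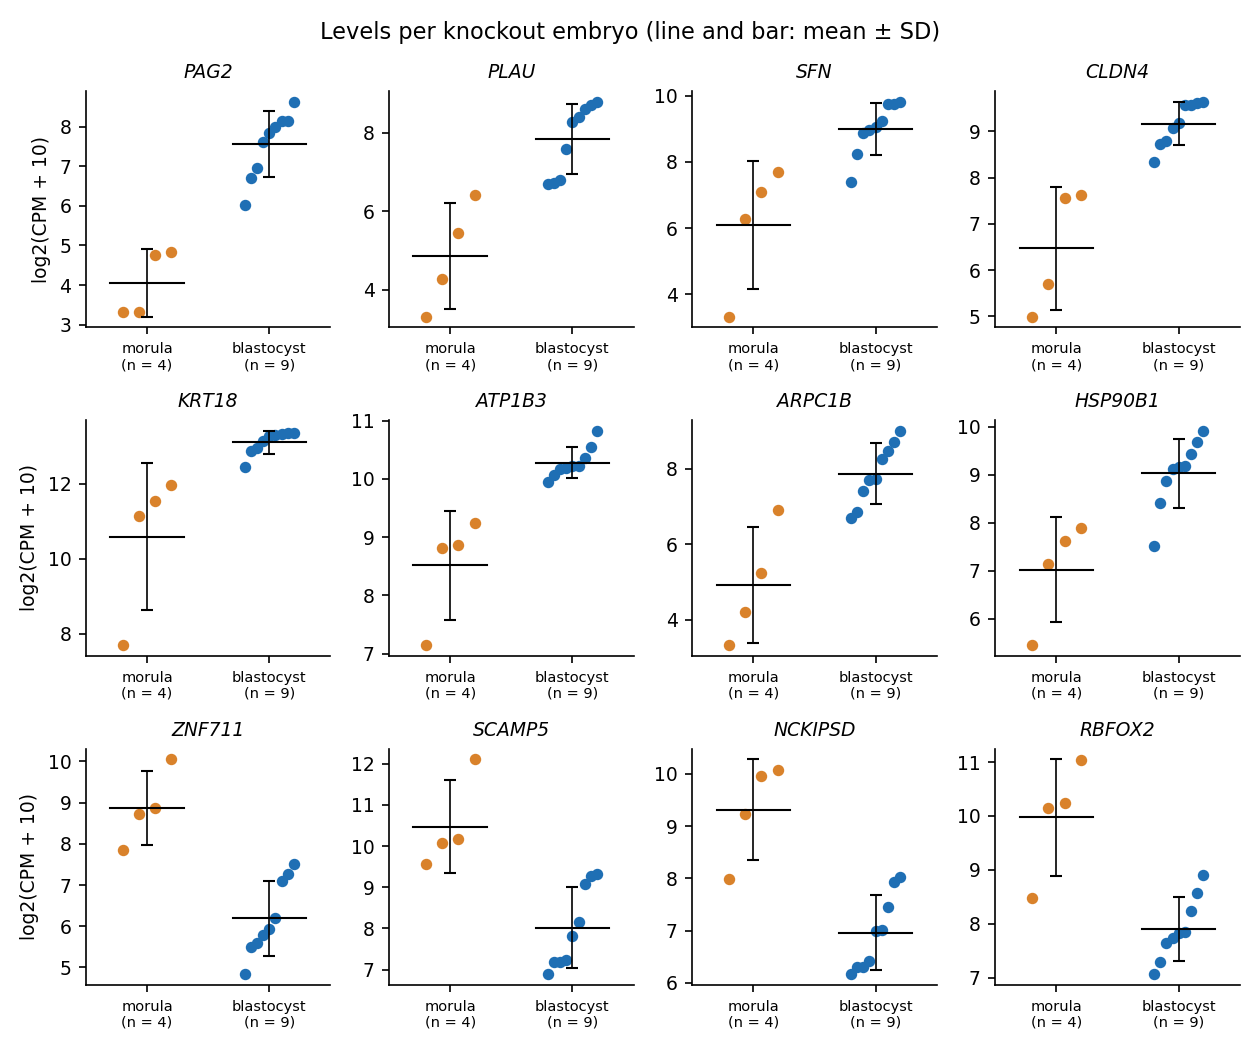
Level per embryo, log2(CPM + 10), of 12 genes in the 4 knockout morulae (orange) and 9 knockout blastocysts (blue), with mean and SD. In the top 2 rows blastocysts are higher, with some overlap for SFN, ARPC1B and HSP90B1; in the bottom row they are lower, and morula 21 is the highest embryo for all 4 genes.

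Genes of the actin cortex, which compaction and epithelial sealing remodel, had 4 of 28 tested members higher, against 6.66% of all tested genes, and none lower (median change 1.16; 0.65 with quantile scaling and 0.27 without the 3 libraries). ARPC1B, a subunit of the Arp2/3 complex that nucleates branched actin, had 8.43, 28.0, 109 and 0 CPM in morulae 1, 5, 21 and 49 and 94.2 to 507 CPM (median 204) in blastocysts. Only morula 21 reached the blastocyst range. ARPC1B rose by 2.94 ± 0.56 (SE, adjusted p = 0.00846). EZR, ezrin, which anchors actin to the apical membrane, had 656 to 2255 CPM in morulae and 2589.8 to 5519 CPM in blastocysts, without overlap. It rose by 1.49 ± 0.38 (SE, adjusted p = 0.0237) and by 0.94 without the 3 libraries (adjusted p = 0.0253). With quantile scaling the adjusted p of EZR was 0.0837. MYH10, a non-muscle myosin heavy chain, had 109.6 CPM in morula 1 and 18.6 in morula 5 against a blastocyst median of 122, and its change was 2.35 ± 0.51 (SE, adjusted p = 0.0127; voom 0.22; 1.09 and adjusted p = 0.135 without the 3 libraries). ACTB, beta-actin, was called at 1.60 ± 0.49 (SE, adjusted p = 0.0483), with 896 CPM in morula 21 and 10280.0 to 15151 CPM in the other morulae. Without the 3 libraries its change was 0.59 (adjusted p = 0.12), and it did not pass with quantile scaling (0.0846) or voom (0.14).

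Of 16 tested transcription factors of the trophectoderm, 2 were higher, ARID3A and ELF3, against 6.66% of all tested genes, and none was lower, with a median change of 1.19 (0.30 with quantile scaling). ARID3A, an ARID-domain factor, had 16.9, 28.0, 0 and 0 CPM in morulae 1, 5, 21 and 49 and 15.7 to 85.7 CPM (median 54.2) in blastocysts, with overlap, and its change of 1.66 ± 0.48 (SE, adjusted p = 0.0391) missed the threshold in the other 3 fits. ELF3, an epithelial ETS factor, had 1 read over the 4 morulae, in morula 21, and 0 to 118 CPM (median 38.9) in blastocysts (1.78 ± 0.55, SE, adjusted p = 0.0479). ELF3 did not pass with quantile scaling (0.80, adjusted p = 0.431) or voom (0.274), passed without the 3 libraries (2.38, adjusted p = 0.0101), and was called in 2 of the 13 fits that left out 1 embryo. CDX2, which maintains the trophectoderm, changed by 1.18 (adjusted p = 0.203) and GATA2 by 0.15 (adjusted p = 0.821), neither past the threshold; GATA3 did not pass either (adjusted p = 0.185). TBX3, the T-box factor, had no read in morula 21, 381 to 565 CPM in the other morulae and 518 to 832 in blastocysts (1.89 ± 0.72, SE, adjusted p = 0.0942). Without the 3 libraries the TBX3 change was 0.36 (limma-trend adjusted p = 0.478). TEAD4, the DNA-binding partner of YAP1, changed by 1.25 ± 0.53 (SE, adjusted p = 0.116) and by 0.53 without the 3 libraries. With all 13 knockouts none of the 16 tested Hippo pathway genes was called, against 6.66% higher and 0.525% lower of all tested genes. Their median change was 0.72, beside 0.69 for all genes.

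None of 12 tested epiblast and pluripotency genes was called, against 6.66% higher and 0.525% lower of all tested genes. Their median change was 0.90 (0.20 with quantile scaling, -0.07 without the 3 libraries). NANOG, a core factor of the epiblast, had 8.43, 0, 0 and 25.4 CPM in morulae 1, 5, 21 and 49 and 0 to 54.2 CPM (median 27.1) in blastocysts, a change of 0.96 ± 0.53 (SE, adjusted p = 0.213). POU5F1, which cattle embryos keep in both lineages at these stages, changed by 1.32 (adjusted p = 0.251) and DPPA3, a maternal and pluripotency factor, by 0.05 (adjusted p = 0.954). The groups overlapped for NANOG, and the interval of its change includes 0. Of 13 tested hypoblast genes, 1 was higher, against 6.66% of all tested genes, and none lower (median 1.46; 0.63 with quantile scaling). PDGFRA, a receptor of the early hypoblast, had 2 reads over the morulae, both in morula 1 (16.9 CPM), and 13.6 to 101 CPM (median 27.1) in blastocysts. It rose by 1.73 ± 0.40 (SE, adjusted p = 0.0167; quantile scaling 0.33, voom 0.169). APOA1, an apolipoprotein of the hypoblast, had 8.43, 83.9, 0 and 0 CPM in morulae and 0 to 1419 CPM (median 316) in blastocysts. It did not pass despite a change of 3.50 ± 1.04 (SE, adjusted p = 0.0537), with 7 blastocysts above every morula and none below. GATA6 changed by 1.22 (adjusted p = 0.174), and GATA4 and SOX17 did not reach the level needed for a test. GATA4 had 33 reads over the blastocysts and 0 over the morulae, and 14 of the 15 SOX17 reads in morulae were in morula 21.

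Maternal transcripts left nothing to compare: 16 of the listed oocyte genes were present in both tables, none had enough reads to test, and ZP3 and OOEP, with 34 and 36 reads over the 9 blastocysts and 0 and 2 over the morulae, were the best covered. None of 6 tested genes of embryonic genome activation was called, against 6.66% higher and 0.525% lower of all tested genes (median change 0.94).

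**Figure D4:**
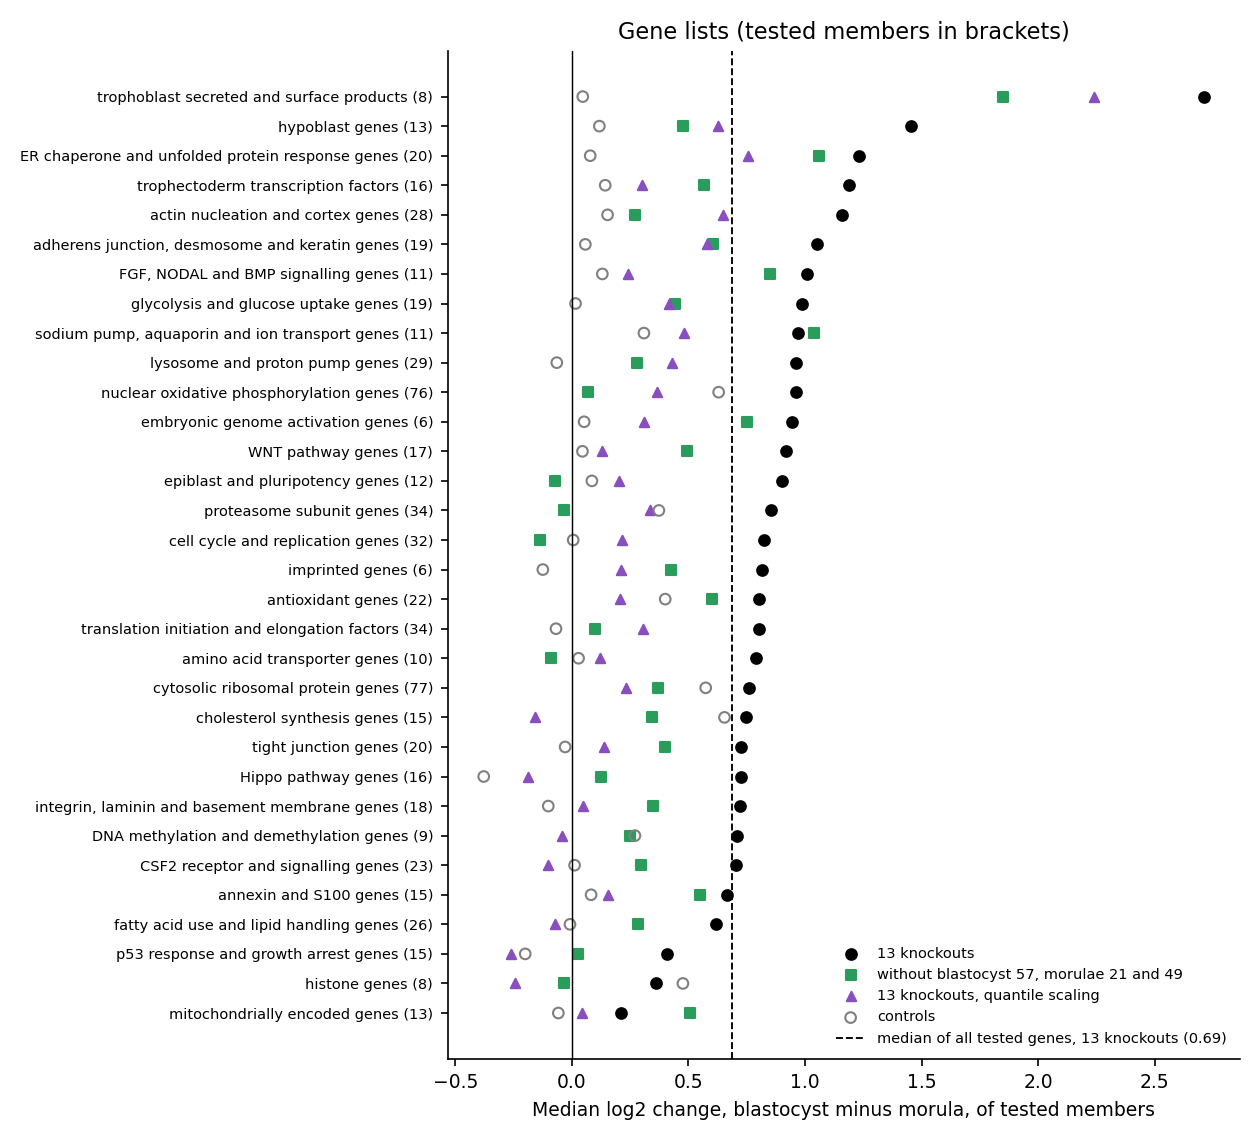
Median change, blastocyst minus morula, of each gene list with at least 5 tested members: black, 13 knockouts; purple, quantile scaling; green, without blastocyst 57 and morulae 21 and 49; open grey, controls. The trophoblast products lie farthest right in each knockout series (2.71, 2.24 and 1.85) and at 0.05 in controls.

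Of 23 tested genes of CSF2 signalling, 3 were higher and 2 lower, against 6.66% and 0.525% of all tested genes, with a median change of 0.70 beside 0.69 for all genes. Without the 3 libraries 1 was higher and none lower; the 2 that fell, PIM3 and PIK3CB, are named after their values were seen. CCND2, cyclin D2, a growth target of the pathway, had 101, 93.2, 0 and 25.4 CPM in morulae 1, 5, 21 and 49 and 169 to 282 CPM (median 202) in blastocysts, without overlap. It rose by 2.31 ± 0.50 (SE, adjusted p = 0.0124; 0.0122 with quantile scaling, 0.0889 with voom; 1.07 and 0.042 without the 3 libraries). GAB2, a docking protein for PI3-kinase, had 1 read over the 4 morulae, in morula 5, and 11.6 to 94.2 CPM in blastocysts (1.90 ± 0.45, SE, adjusted p = 0.018; quantile scaling 0.335, voom 0.276, without the 3 libraries 0.0638). PTPN11, the SHP2 phosphatase, had 67.5, 74.5, 0 and 0 CPM in morulae and 79.9 to 174 CPM in blastocysts (2.12 ± 0.53, SE, adjusted p = 0.0216; quantile scaling 0.068, voom 0.248; 0.59 and adjusted p = 0.361 without the 3 libraries).

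PIM3, a serine/threonine kinase of the PIM family, had 658, 2208, 9466 and 3224 CPM in morulae 1, 5, 21 and 49 and 279 to 1419 CPM (median 786) in blastocysts. Morula 1 lay inside the blastocyst range and the other morulae above it. PIM3 fell by 1.82 ± 0.46 (SE, adjusted p = 0.0237), which did not pass without the 3 libraries (adjusted p = 0.168). PIK3CB, a catalytic subunit of PI3-kinase, went from 388 to 1071 CPM in morulae to 92.8 to 439 CPM (median 127) in blastocysts, with 1 blastocyst inside the morula range, and fell by 1.68 ± 0.47 (SE, adjusted p = 0.0334), which did not pass without the 3 libraries either (adjusted p = 0.0518). STAT3 did not pass: it stood at 135, 83.9, 43.7 and 50.8 CPM in morulae and 72.7 to 159 CPM in blastocysts (0.45 ± 0.40, SE, adjusted p = 0.438). JAK2, STAT5A and STAT5B, the core of the pathway, were too sparse to test. JAK2 had 36 reads over the blastocysts and 0 over the morulae, STAT5A had 5 and 1, and STAT5B had 24 and 0.

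Chaperones of the endoplasmic reticulum, which fold secreted proteins, had 5 of 20 tested members higher, against 6.66% of all tested genes, and none lower (median 1.23; 0.75 with quantile scaling and 1.06 without the 3 libraries). HSP90B1, the HSP90 of the endoplasmic reticulum, had 33.7, 186, 131 and 228 CPM in morulae 1, 5, 21 and 49 and 173 to 960.5 CPM (median 567) in blastocysts. HSPA5, its principal HSP70, had 101, 177, 131 and 228 CPM in the same morulae and 157 to 1094 CPM (median 569) in blastocysts. For both genes 8 of 9 blastocysts lay above every morula. HSP90B1 rose by 1.99 ± 0.47 (SE, adjusted p = 0.018) and HSPA5 by 1.76 ± 0.46 (SE, adjusted p = 0.0273). These 2 genes passed with voom and without the 3 libraries, and missed the threshold with quantile scaling (adjusted p = 0.0525 and 0.0849). CRELD2, a secreted stress response protein, was at 25.3, 46.6, 0 and 0 CPM in morulae and at 0 in blastocyst 57, with a blastocyst median of 174 CPM (2.70 ± 0.70, SE, adjusted p = 0.0265). CRELD2 did not pass with voom (adjusted p = 0.312) and passed in 9 of the 13 fits that left out 1 embryo. Without the 3 libraries 10 of the list's members were higher.

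Calls in the metabolic lists are read beside 6.66% higher and 0.525% lower of all tested genes. SLC2A1, the glucose carrier GLUT1, was the only call among 19 tested genes of glycolysis and glucose uptake (median 0.99), with 236, 112, 0 and 178 CPM in morulae 1, 5, 21 and 49 and 219.7 to 428 CPM in blastocysts. It rose by 2.04 ± 0.57 (SE, adjusted p = 0.0351), and by 1.12 without the 3 libraries (adjusted p = 0.0394), and was not past the threshold with quantile scaling (0.0759) or voom (0.114). Fatty acid and lipid genes had 4 of 26 members higher and none lower (median 0.62), led by SCD, the stearoyl-CoA desaturase, which had 1 read over the morulae, in morula 1, and 7.74 to 155 CPM in blastocysts (2.18 ± 0.52, SE, adjusted p = 0.018). None of these 4 passed with quantile scaling (list median -0.07), with voom or without the 3 libraries. Lysosome and proton pump genes had 3 of 29 higher and none lower (median 0.96), with none higher by quantile scaling or voom. Neither the 76 nuclear genes of oxidative phosphorylation (median 0.96), the 13 mitochondrially encoded genes (median 0.21) nor the 77 cytosolic ribosomal protein genes (median 0.76) held a call in either direction by limma-trend, where 0 such calls stand beside 6.66% and 0.525% over all genes.

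Further genes among those called in all 4 fits were the cathepsin CTSH, the phospholipase D family member PLD3, the fatty acid desaturase family member FADS3 and the receptor phosphatase PTPRJ. CTSH had 33.7, 74.5, 0 and 76.1 CPM in morulae 1, 5, 21 and 49 and 126 to 369 CPM (median 312) in blastocysts, without overlap (2.71 ± 0.51, SE, adjusted p = 0.00846). PLD3 had 118, 149, 0 and 127 CPM against 188 to 782 (median 559), again without overlap (2.81 ± 0.57, SE, adjusted p = 0.00913). FADS3 had 33.7, 242, 0 and 152 CPM against 211 to 705 (median 451), with morula 5 inside the blastocyst range (2.79 ± 0.59, SE, adjusted p = 0.0112). PTPRJ had no read in any morula and 269 reads over the blastocysts, in all 9, at 31.4 to 103 CPM. Set against 3 reads over the 4 morulae together (9.64 CPM), a limit that covers counting error only, its mean was at least 6.41-fold higher in blastocysts. The other 7 higher genes of that set, beside PAG2, PLAU, SFN, CLDN4, KRT18, ATP1B3 and ARPC1B named above, were RBM19, SLC7A4, EPPK1, B4GALT3, PDLIM4, PRSS22 and COTL1.

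The genes that fell were abundant in morula 21. Of the 35 lower genes, 24 had their highest level of all 13 embryos in morula 21, 7 in morula 49, 4 in morula 5 and none in morula 1 or a blastocyst; over all tested genes 434 of 6669 were highest in morula 21. NPAT, which dominates that library, was itself called lower (-1.59 ± 0.49, SE, adjusted p = 0.0479; quantile scaling -0.05, without the 3 libraries -0.78, neither past the threshold), and its part in the other changes was not tested. Median genomic span was 41.6 kb for the 35 lower genes, 23.6 kb for the 444 higher ones and 20.9 kb for all tested genes. ZNF711, a zinc finger gene on chromosome X, had 219, 410.0, 1049 and 457 CPM in morulae 1, 5, 21 and 49 and 18.5 to 173 CPM (median 51.2) in blastocysts. No blastocyst reached a morula. It fell by 2.70 ± 0.51 (SE, adjusted p = 0.00846) and by 2.38 without the 3 libraries (adjusted p = 0.016). WNK3, a kinase that regulates ion cotransporters, also lies on chromosome X and went from 202, 568, 1793 and 381 CPM to 51.2 to 188 CPM (median 90.4), a fall of 2.39 ± 0.47 (SE, adjusted p = 0.00913).

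SCAMP5, a secretory carrier membrane protein, had 742, 1137, 4394 and 1066 CPM in morulae 1, 5, 21 and 49 and 108 to 632 CPM (median 217) in blastocysts, without overlap, and fell by 2.49 ± 0.50 (SE, adjusted p = 0.00913). NCKIPSD, an SH3 protein of actin regulation, had 245, 587, 1071 and 989.9 CPM and 61.9 to 251 CPM (median 118). It fell by 2.39 ± 0.45 (SE, adjusted p = 0.00846), with 1 blastocyst just above morula 1. RBFOX2, a regulator of splicing, had 346, 1118, 2099 and 1193 CPM in morulae and 124 to 472 CPM (median 217) in blastocysts, 7 of which lay under every morula, and fell by 2.10 ± 0.43 (SE, adjusted p = 0.0102). MYT1L, a zinc finger factor of neurons, had 787 to 3476 CPM in morulae and 122 to 832 in blastocysts and fell by 2.30 ± 0.50 (SE, adjusted p = 0.0127). SEPTIN5 and PDF complete the 8 genes lower in all 4 fits.

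The largest falls rested on fewer fits. PATZ1, a zinc finger repressor, had 8263, 9094, 33995 and 27718 CPM in morulae 1, 5, 21 and 49 and 15.4 to 8947 CPM (median 2099) in blastocysts. It fell by 4.09 ± 0.87 (SE, adjusted p = 0.018) and did not pass with quantile scaling (0.185), voom (0.117) or without the 3 libraries (0.14). C13H20orf144 had 7369 to 40335 CPM in morulae and 448 to 6734 CPM in blastocysts, without overlap, and fell by 3.17 ± 0.55 (SE, adjusted p = 0.00644; 0.0557 with quantile scaling and 0.103 without the 3 libraries). PKD1, polycystin-1, was at 42.2 and 37.3 CPM in morulae 1 and 5 and at 1771 and 2107 CPM in morulae 21 and 49, against 4.52 to 193 CPM in blastocysts. Its fall of 3.14 ± 0.86 (SE, adjusted p = 0.0368) was lost without the 3 libraries (log2 change -0.73, adjusted p = 0.649), with quantile scaling (0.147) and with voom (0.213). PRDM12, a PR-domain factor, had 42.2, 55.9, 109 and 50.8 CPM in morulae and 0 to 13.6 CPM (median 7.27) in blastocysts, all under every morula, and fell by 2.08 ± 0.41 (SE, adjusted p = 0.00884); it passed with quantile scaling and voom and was not tested without the 3 libraries.

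Few markers of other cell types had enough reads to test. Of 3 tested cumulus and granulosa markers, CYP11A1, the side-chain cleavage enzyme of steroid synthesis, and STAR, which brings cholesterol to it, were higher in blastocysts, against 6.66% of all tested genes. The 11 listed markers summed to 16.6 to 548 CPM in blastocysts (median 302) and 21.9 to 127 CPM in morulae (median 59.2); FOXL2 and TNFAIP6 had no read in any knockout and HAS2 had 1. CYP11A1 had 1 read over the morulae, in morula 5, and 5.54 to 316 CPM in blastocysts (2.38 ± 0.61, SE, adjusted p = 0.0237; quantile scaling 0.244, voom 0.359, without the 3 libraries 0.236). STAR had none over the morulae and at most 37.2 CPM in a blastocyst (1.41 ± 0.43, SE, adjusted p = 0.0466; quantile scaling 0.759, voom 0.48, without the 3 libraries 0.163). Leukocyte markers summed to 0 to 22.6 CPM in blastocysts and 16.9 to 415 CPM in morulae, where 15 reads of CD74 in morula 21 gave 328 CPM; no leukocyte, erythrocyte or sperm marker had enough reads to test. Their part in any change was not tested.

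Controls offered the same stage contrast in other embryos. In 1 fit of all 34 embryos, no gene of 8022 differed between control blastocysts and control morulae by limma-trend (0% each way; smallest adjusted p = 0.391), while 212 were higher and 102 lower at an unadjusted p under 0.05, and the median change was 0.10. In the same fit 856 genes were higher (10.7%) and 59 lower (0.735%) in knockout blastocysts. The control blastocysts include embryo 12, in which 2625 genes had reads and mitochondrially encoded genes held 36.4% of reads. The control stage change was not refitted without it, so 0 and 856 calls are not read as a difference between genotypes. Control levels are on the scaling of all 34 embryos and knockout levels on that of the 13, so they are set side by side only roughly. Control morulae reached greater depth than knockout morulae, with 93885 to 1526404 reads and 8064 to 13465 genes. The difference of the 2 stage changes passed for 3 genes (0.0374%), all with the larger change in knockouts, and for 0 in the other direction (0%), while 1040 genes were higher and 66 lower at an unadjusted p under 0.05. RBM19, a nucleolar RNA-binding protein of ribosome assembly, had no read in any knockout morula and 36.2 to 55.4 CPM in knockout blastocysts, a mean at least 4.96-fold higher against the limit of 3 reads. It had 26.9 to 83.2 CPM in the 4 control morulae and a median of 34.2 CPM in control blastocysts, and the difference of changes was 2.96 ± 0.55 (SE, adjusted p = 0.00687). RAPGEF5, a guanine nucleotide exchange factor, likewise had no read in knockout morulae, 22.0 to 51.5 CPM in control morulae and a difference of 2.80 ± 0.54 (SE, adjusted p = 0.00712). MOB3B, of the MOB kinase activator family, had 1 read over the knockout morulae, in morula 1, and 31.3 to 54.9 CPM in control morulae, with a difference of 2.70 ± 0.56 (SE, adjusted p = 0.0246). None of the 3 passed with quantile scaling or voom, where no gene was called, and their knockout morula levels are at the limit of depth. The count of 3 became 5 without control morula 39, 9 without knockout morula 1, 86 without knockout morula 5, 7 without knockout morula 49 and 58 without the 3 libraries and control blastocyst 12, in which 2625 genes had reads.

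**Figure D5:**
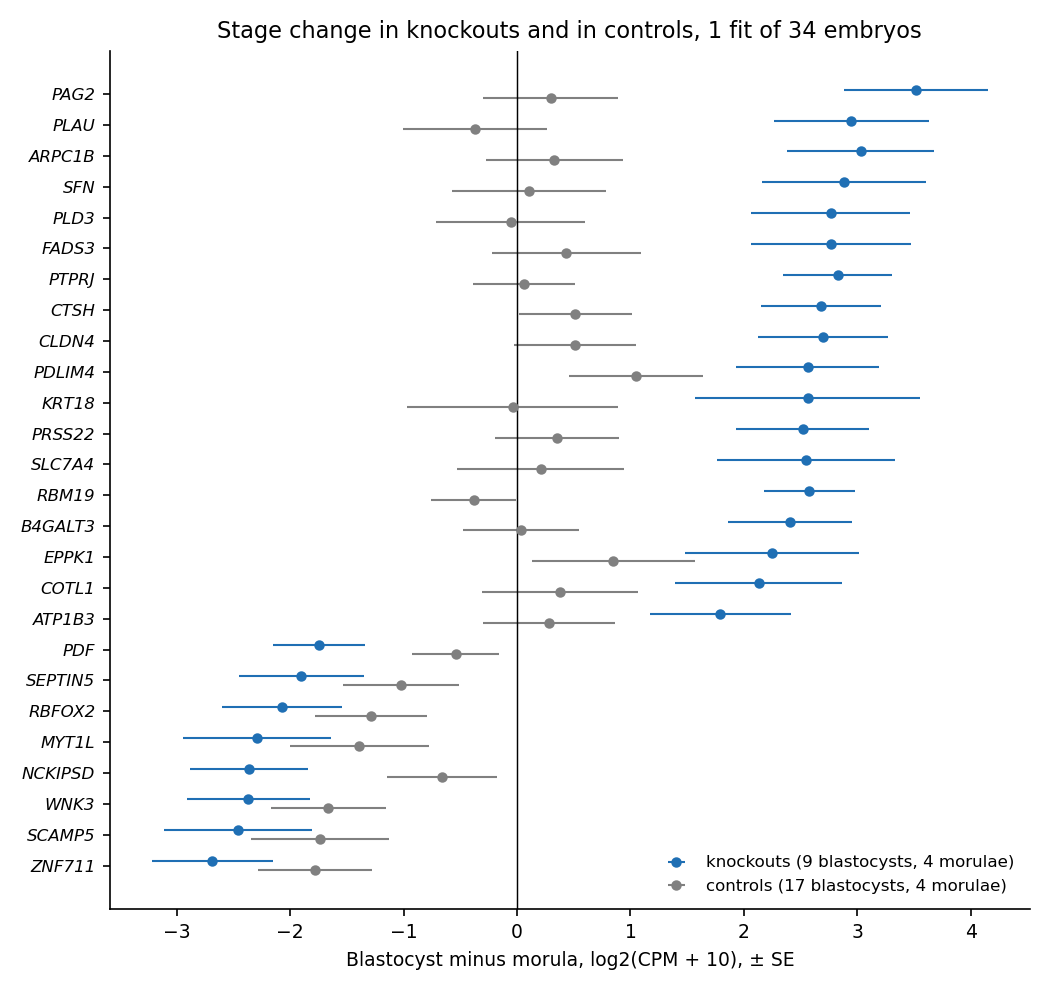
Change from morula to blastocyst (log2(CPM + 10), ± SE) of the 26 genes called in all 4 knockout fits, in knockouts (blue) and controls (grey), from 1 fit of 34 embryos. Genes that fell in knockouts lie under 0 in controls too, whereas the genes that rose lie around 0 in controls; of the 26, the difference itself passed only for RBM19.

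For the 8 genes that fell in all 4 fits, control changes ran from -1.78 to -0.54, all negative, and none passed. Over all 35 lower genes the 34 that were fitted in controls had negative control changes, where 2536 of the tested genes had negative and 4129 positive ones. ZNF711 had 20.3, 210.0, 97.1 and 242 CPM in control morulae 39, 41, 54 and 73 and a median of 24.7 CPM in control blastocysts, a control change of -1.78 ± 0.50. Of the 18 genes that rose in all 4 fits, 14 had a positive control change and 4 a negative one, from -0.38 to 1.05. PAG2 had 70.8, 234, 92.4 and 450.2 CPM in the same control morulae and a median of 240.0 CPM in control blastocysts, a control change of 0.30 ± 0.59; its difference of changes, 3.22 ± 0.87, did not pass (SE, adjusted p = 0.112). PLAU had 139.7 to 615 CPM in control morulae and a median of 269 CPM in control blastocysts (difference 3.32 ± 0.93, SE, adjusted p = 0.112). CLDN4 had 237 to 758 CPM in control morulae and a median of 625 CPM in control blastocysts (difference 2.19 ± 0.78, SE, adjusted p = 0.186). For these 3 genes the control morulae lay within or near the range of knockout blastocysts and the knockout morulae below it. Among the trophoblast products the median control change was 0.05 and none of the 8 differences passed.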

How the data were processed

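Per the labels, RNA of single embryos was extracted with a column kit and made into stranded poly(A) libraries; per the submitters' processing notes, FastQC, featureCounts and edgeR were used on ARS-UCD1.2, versions not given. The authors deposited RPKM per gene and embryo, in 1 table per stage (18442 and 14878 genes); the morula table names no unit, and RPKM was inferred from its values. Each table lists genes with a read in at least 1 of its embryos. Values equal reads over the gene's genomic span, introns included, so levels were compared between embryos and not between genes. Reads were recovered as RPKM times length, divided by the embryo's smallest non-zero value, and were whole for 100% of values within 0.01. No column was left unmapped.

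The 14494 genes in both tables were scaled jointly over the 13 knockouts (trimmed mean of M values); 6669 reached 20 CPM in at least 4 embryos. The test was limma-trend (limma 3.58.1, R 4.3.3) on log2(CPM + 10), robust, with sex as a term, two-sided, Benjamini-Hochberg over all genes tested, at 0.05. No count model was made the main test, since the deposited unit is RPKM. Voom was fitted to the recovered reads. Stage by genotype was tested in all 34 embryos. On simulated counts with these depths limma-trend called unchanged genes higher more often than its threshold allows, and called them so less often where quantile scaling and voom also had to pass, which is why the fits are given together. Replicate numbers are embryo numbers. Members and gene lists were chosen with earlier results of these data known. Named genes were the 15 largest called changes per direction that were detected in most embryos of the higher stage, the best 3 to 5 of each list, the receptor pathway and the 5 smallest p of the genotype difference per direction. The genes chosen after their values were seen are CDX2, GATA2, GATA3, GATA4, GATA6, SOX17, POU5F1, DPPA3, SSLP1, IFNT, IFNT3, KRT19, PIM3, PIK3CB, NPAT, GSC2, TBX1, ANKRD9, CD74, HAS2, FOXL2, TNFAIP6, ZP3, OOEP, SLC7A4, EPPK1, B4GALT3, PDLIM4, PRSS22, COTL1, SEPTIN5 and PDF. Limits of 3 reads and detection cover counting error only. No sequences are shown. CPM here includes the scaling between embryos. Some members of the lists are counted but not reported here by name.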

Additional observations from a re-analysis of the deposited data

Results flagged for a closer look

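Of 140 groups of embryos examined for 1 embryo far from the rest (66 genes and 4 library measures in the 4 morulae and in the 9 blastocysts), 17 had one. The rule is set for about 1 in 20 by chance with continuous values. Where only 1 of the 4 morulae had reads it is always flagged, so the 17 are not set against that share. Morula 21 stood apart for KRT8 (87.4 CPM), ACTB (896 CPM), TBX3, TEAD4 and PLD3 (0 CPM each) and, on the high side with 1 read, ELF3 (21.9 CPM). Blastocyst 57, the shallowest, was far under the other blastocysts for LGALS3 (1036 CPM), HSPA5 (157 CPM), CRELD2 (0 CPM), PLD3 (188 CPM) and PRSS8 (31.4 CPM). Single reads or pairs of reads set morula 1 apart for PDGFRA (16.9 CPM), SCD (8.43 CPM) and MOB3B (8.43 CPM), and morula 5 for GAB2 (9.32 CPM) and CYP11A1 (9.32 CPM). GSC2 was at 8.43 CPM in morula 1, the lowest of the 4 morulae, against 103820.0 to 542374 CPM in the others.

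The stage change differed between knockouts and controls by the interaction test for RBM19 (2.96 on the log2 scale), RAPGEF5 (2.80) and MOB3B (2.70). None of these genes passed with quantile scaling or voom, and their knockout morula levels are at the limit of depth.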

How the results depend on the processing

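Against 444 higher and 35 lower genes, total read scaling gave 829 and 30, median ratio scaling 272 and 34, quantile scaling 54 and 68, a pseudocount of 1 CPM 396 and 23, of 50 CPM 287 and 41, no filter 118 and 18, a filter of 50 CPM 254 and 25, voom 22 and 27, voom with quality weights 22 and 36, females only 205 and 27, libraries thinned to 43672 reads 67 and 21, leaving out blastocyst 57 and morulae 21 and 49 276 and 23, the fit of all 34 embryos 856 and 59, and quantile scaling without those 3 libraries, added after seeing the data, 59 and 23. No sex term and genes of either table stayed within 1.5-fold. Leaving out single embryos gave 135 to 1483 higher and 19 to 50 lower. The median change of 0.69 was -0.0005 with quantile scaling, 1.35 and 0.29 with pseudocounts of 1 and 50 CPM, 0.26 without the 3 libraries and -0.0142 with both. The 3 higher genes of the genotype difference became 8 with total read scaling, 94 with a pseudocount of 1 CPM, 0 with quantile scaling and voom, and 58 higher and 3 lower without those libraries and control blastocyst 12; single morulae left out gave 2 to 86 higher and 0 to 3 lower. The depth difference of 0.56 log10 reads was 0.54 without the 3 libraries (exact permutation p = 0.111) and 0.47 to 0.66 with single embryos left out; the share of the 2 highest genes then differed by -5.35 percentage points without the 3 libraries (exact permutation p = 0.178), and the mitochondrial share by 0.66 to 1.67 points (1.13 with all embryos), with exact permutation p = 0.0227 without morula 1. Calls split 92.7% higher with limma-trend as reported and 44.3% higher with quantile scaling. The causes were not tested. No paired analysis was possible because replicate numbers are embryo numbers that no 2 groups share.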

Other observations

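Among genes outside the lists or not yet described, LMO1, a LIM-domain transcription cofactor, had 84.3, 112, 0 and 0 CPM in knockout morulae 1, 5, 21 and 49 and 94.2 to 511 CPM (median 218) in knockout blastocysts. Its change was 2.94 ± 0.59 (SE, adjusted p = 0.00913 by limma-trend), and it passed with quantile scaling and without the 3 libraries (1.27, adjusted p = 0.0349) but not with voom (adjusted p = 0.105). PRSS8, prostasin, a serine protease of epithelial surfaces, had 8.43, 93.2, 0 and 0 CPM against 31.4 to 208 (median 141), with a change of 2.70 ± 0.56 (SE, adjusted p = 0.0106; voom 0.116; 1.64 and 0.0193 without the 3 libraries). LGALS1, galectin-1, had 278, 307, 0 and 102 CPM against 219.7 to 1934 (median 810.0), with a change of 2.91 ± 0.69 (SE, adjusted p = 0.0192; voom 0.116; 1.43 and 0.0456 without the 3 libraries). For LMO1, PRSS8 and LGALS1, 8 of 9 blastocysts lay above every morula.

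Of 32 tested cell cycle and replication genes, 3 were higher and none lower, against 6.66% and 0.525% of all tested genes. The median change was 0.82, and -0.14 without the 3 libraries. The integrin and basement membrane list (18 tested, median 0.72), the WNT list (17 tested, median 0.92) and the cholesterol synthesis list (15 tested, median 0.75) held no call in either direction by limma-trend. The annexin and S100 list had 1 of 15 higher, against 6.66% of all tested genes. ANXA6, a calcium-dependent membrane-binding protein, was that gene, with 287, 615, 0 and 50.8 CPM in morulae 1, 5, 21 and 49 and 388 to 878 CPM (median 731) in blastocysts. Its change of 2.74 ± 0.66 (SE, adjusted p = 0.019) was 0.74 without the 3 libraries (adjusted p = 0.204) and did not pass with voom (0.104).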
